A study of Mus musculus with 7 samples.

Results

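Scavenger receptors are the genes described here: Msr1, Marco, Colec12, Scarb1, Scarb2, Cd68 and Olr1. They were chosen by gene symbol, and all 7 were found among the 50686 genes of the deposited tables. The libraries came from microglia of 4 young (3 to 4 months) and 3 old (21 to 22 months) male mice on a C57BL/6 background, with 1 animal per library (14C, 18C, 23C and 29C for young, 2posI, 3posI and 4posI for old). All mice had transient occlusion of the middle cerebral artery and were studied 4 days later, so every value below is from ischemic brain. Neither age was given a drug to be compared. In both ages the cells were sorted by FACS after staining for CD11b and CD45 and gated as Bodipy+, that is, stained by a dye for the neutral lipid of lipid droplets, so the comparison is between lipid-laden cells of each age and not between all their microglia. The comparison asks whether these receptors were expressed at other levels in old than in young mice after ischemia.

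Scavenger receptors take up modified lipoproteins, dying cells and other polyanionic ligands, and in macrophages they bring cholesterol and lipid into the cell. They are grouped in classes by structure rather than by descent. Class A receptors (Msr1, Marco and Colec12) have a collagen-like stalk, class B receptors (Scarb1 and Scarb2) cross the membrane at both ends, CD68 is a heavily glycosylated relative of the lysosomal LAMP proteins, and Olr1 encodes a C-type lectin. In the brain, microglia use such receptors to clear myelin and cell debris after injury.

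The libraries held 36574083 to 53002386 expected counts, the read counts that RSEM assigns to genes. Levels are given as CPM, expected counts divided by the library total after TMM scaling, and, where genes are compared with each other, as TPM, which also divides by transcript length. Each age difference is the log2 fold change of old over young with its standard error (SE) from the quasi-likelihood test of edgeR, fitted over 17559 genes, and a gene is called at an adjusted p under 0.05 (Benjamini-Hochberg, over all these genes). Defining markers of microglia were present in every library, at 21747 to 32406 summed CPM over 10 genes in young mice and 11176 to 25296 in old mice. Library 3posI stood apart, with the lowest sum of microglia markers (11176 CPM) and 2867 CPM of 8 monocyte and infiltrating macrophage markers, against 181 to 485 CPM in the other 6 libraries. Values of the 7 receptors that rest on 3posI are therefore given with and without it. The share of counts in ribosomal RNA genes also moved with age, from 3.52 to 4.25% in young libraries and from 1.62 to 2.84% in old libraries, and its part in the results was not tested.

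All 7 genes passed the filter on low counts, 4 with a higher and 3 with a lower fitted level in old mice, and their median log2 fold change was 0.25 against -0.01 over all genes tested. Scarb1 was the 1 gene of the 7 that was called, whereas 0.968% of all genes tested were called. The ages did not overlap in 3 of the 7 genes (Scarb1 and Colec12 lower, Marco higher in old mice), against 17.7% of all genes tested. The same 3 genes had an unadjusted p under 0.05, against 18.9% of all genes tested. In bulk RNA of sorted cells, fewer cells that express a gene and less RNA per cell cannot be told apart. No exon base of the 7 genes is shared with another gene of the GENCODE vM21 annotation on either strand, and their expected counts were whole numbers, within a tolerance of 0.001, in all 7 libraries.

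The 7 genes spanned a wide range of levels, which set how firmly each could be compared. In order of mean TPM they were Cd68, Msr1, Scarb2, Scarb1, Colec12, Olr1 and Marco. Cd68 alone held 87.6 to 91.0% of the summed TPM of the 7 genes. Neighbours in this order were compared within libraries on log2(TPM + 0.1), with an exact sign-flip permutation test (two-sided, n = 7 libraries, smallest possible p 0.0156, adjusted over 6 pairs). The order came from the same TPM values, so these tests describe how steady it was between libraries and are no independent support for it. Cd68 was 17.1-fold above Msr1 in the geometric mean, and it was higher in 7 of 7 libraries (adjusted p = 0.0234, exact test). Msr1 was 1.52-fold above Scarb2 and was higher in 6 of 7 libraries (adjusted p = 0.0375, exact test). The exception was young library 18C, with 88.5 TPM of Msr1 and 101 TPM of Scarb2. Scarb2 was above Scarb1, Scarb1 above Colec12, and Olr1 above Marco in 7 of 7 libraries (adjusted p = 0.0234 in each pair, exact test). Colec12 and Olr1 were not told apart, since Colec12 was higher in 4 of 7 libraries (1.12-fold, adjusted p = 0.672, exact test).

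**Figure D1:**
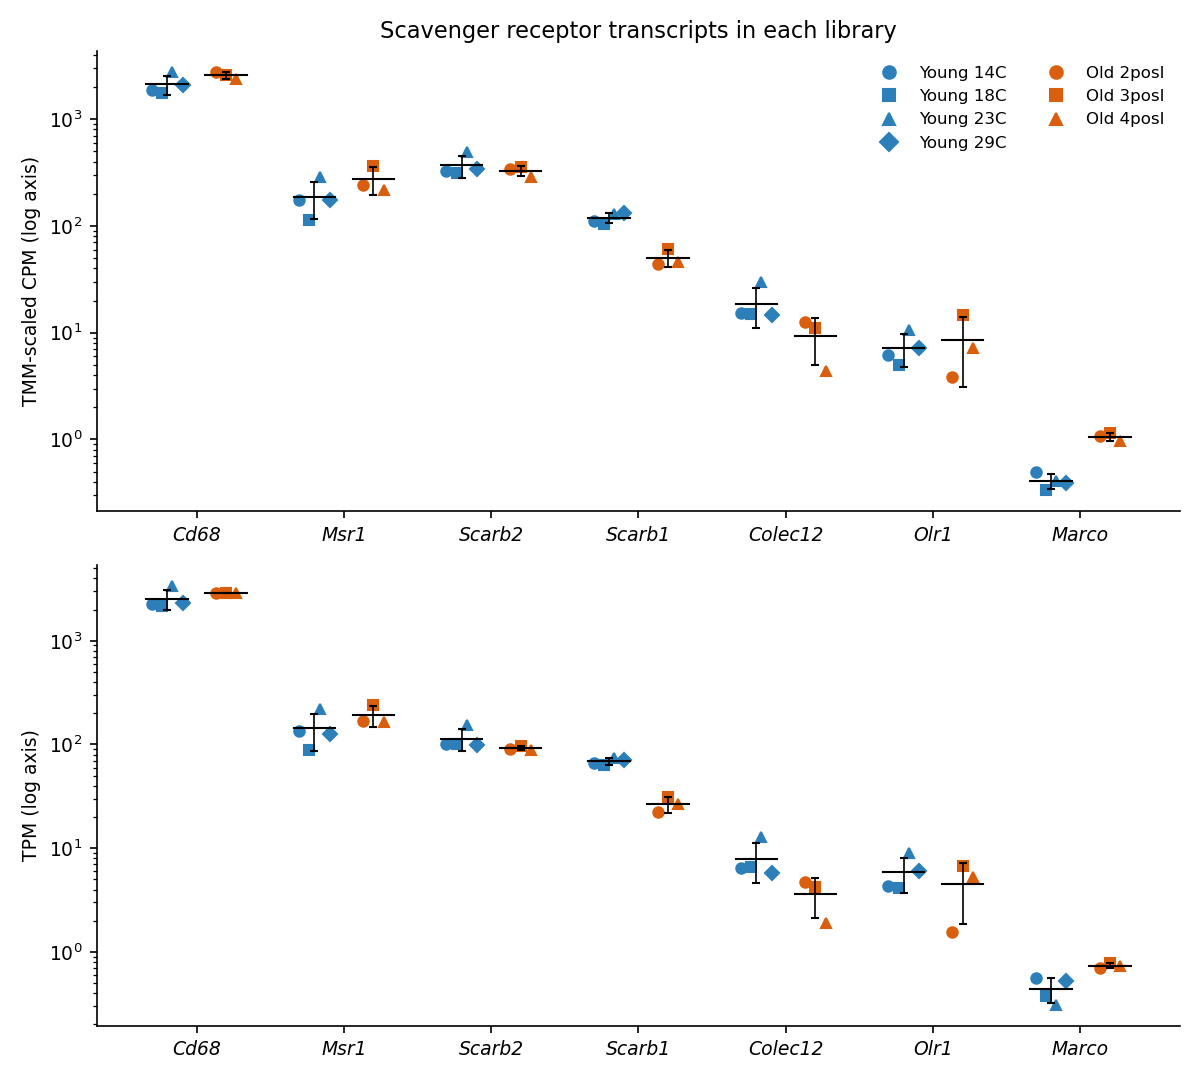
Levels of the 7 scavenger receptor genes in each library, as TMM-scaled CPM (upper panel) and TPM (lower panel), both on log axes, with young libraries in blue and old libraries in orange. Each point is 1 mouse, the horizontal bar is the mean and the error bar the SD (4 young, 3 old); all old points lie below all young points for Scarb1 and Colec12 and above them for Marco, while Cd68 lies far above the other genes in every library.

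The class B receptors included the gene that was called. Scarb1 encodes SR-BI, the receptor that exchanges cholesterol esters with high-density lipoprotein, and lies on chromosome 5 (125277087 to 125341094, minus strand, GRCm38). Scarb1 had 112, 104, 129 and 131 CPM in young libraries 14C, 18C, 23C and 29C, and 44.2, 60.5 and 45.4 CPM in old libraries 2posI, 3posI and 4posI. Every old library was below every young library, and the highest old value was that of 3posI. The mean fell from 119 ± 12.97 CPM (SD, n = 4) to 50.04 ± 9.11 CPM (SD, n = 3). Scarb1 fell by 1.25 on the log2 scale (SE 0.16, 95% interval -1.60 to -0.90), a level 2.38-fold higher in young than in old mice (adjusted p = 0.0189, edgeR). Without 3posI the log2 fold change was -1.41 (adjusted p = 0.0181, edgeR). The call was lost when 14C, 18C, 29C or 2posI was left out (adjusted p = 0.0933, 0.0679, 0.0533 and 0.0880, edgeR), with log2 fold changes of -1.27, -1.31, -1.20 and -1.17, in fits that called 1 or 2 genes in all.

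In TPM, Scarb1 stood at 65.7, 63.1, 74.8 and 70.9 in young libraries and at 22.1, 31.5 and 26.5 in old libraries. Set against each of the other 6 receptors within a library, the ratio of Scarb1 was lower in every old library for 4 (Scarb2, Msr1, Cd68 and Marco) and overlapped for Colec12 and Olr1. For every 100 TPM of Scarb2, the young libraries had 65.6, 62.6, 48.3 and 72.3 TPM of Scarb1 and the old libraries 24.4, 32.3 and 29.7. For every 100 TPM of Msr1, they had 48.1, 71.2, 33.9 and 55.9 TPM of Scarb1 in young libraries and 13.1, 13.2 and 16.3 in old libraries. The ages did not overlap in either ratio, in the ratio to Marco, or in the ratio to Cd68 (per 100 TPM of Cd68, 2.23 to 3.04 in the young libraries against 0.760 to 1.085 in the old). Per 100 TPM of Colec12 the young libraries had 578.5 to 1217 TPM of Scarb1 and the old 466 to 1397. Per 100 TPM of Olr1 the young libraries had 840.4 to 1527 TPM of Scarb1 and the old 1409, 470.3 and 504. These ratios were chosen after the values were seen and carry no test.

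Endothelial cells also express Scarb1, and 3 of 8 endothelial markers tested were lower in every old than in every young library, against 9.07% of all genes tested. Slco1a4, a transporter of the blood-brain barrier, was called (-1.66 ± 0.23, log2 fold change ± SE, adjusted p = 0.0230, edgeR), and Pecam1 and Ly6c1 were not. The endothelial markers summed to 74.7 to 135 CPM in young and 57.9 to 78.7 CPM in old libraries, ranges that overlapped. In young library 14C, Scarb1 had 65.7 TPM, and the endothelial markers ranged from 0.79 TPM (Tek) to 32.4 TPM (Ly6c1) and 34.3 TPM (Cldn5). The gap differed between libraries. Cldn5 had 20.4, 60.5 and 37.2 TPM in 18C, 23C and 29C, where Scarb1 had 63.1, 74.8 and 70.9 TPM. In 2posI, 3posI and 4posI, Cldn5 had 22.8, 24.0 and 10.6 TPM and Scarb1 22.1, 31.5 and 26.5 TPM. Endothelial cells lack CD11b, one of the antigens stained for the sort. All 8 endothelial markers were nonetheless above 0 in every library, 7 with a lower and 1 with a higher fitted level in old mice. The part of endothelial RNA in the Scarb1 difference was not tested. The highest sum of border-associated macrophage markers (1618 CPM) and of monocyte markers was in 3posI, which had the highest Scarb1 of the old libraries.

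Scarb2 encodes LIMP-2, an abundant protein of the lysosomal membrane, and lies on chromosome 5 as well (92441314 to 92506833, minus strand). Scarb2 had 323, 315, 495 and 338 CPM in young libraries and 338, 353 and 287 CPM in old libraries. Young library 23C was the highest, and the ages overlapped. The log2 fold change was -0.17 (SE 0.19, 95% interval -0.60 to 0.25, adjusted p = 0.656, edgeR), and it was 0.0037 without 23C. The interval of Scarb2 thus reached 0 and that of Scarb1 ended at -0.90. In TPM, which follows the transcript length discussed next, every old library (90.5, 97.3 and 89.2) was below every young library (98.2 to 155), with 97.3 in 3posI next to 98.2 in 29C.

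RSEM reports for each gene and library an effective length, the mean length of the transcripts it assigned reads to, less the ends where no read can start. It moves when the mix of transcripts moves, and it was not used to choose the genes. Of the 6 genes with more than 1 transcript, Scarb1 and Scarb2 had longer effective lengths in every old than in every young library, and none had shorter ones. Over all tested genes of several transcripts, 12.7% were longer in old mice without overlap. Scarb2 had 4506, 4496, 4516 and 4505 bases in young libraries and 4573, 4602 and 4586 bases in old libraries (p = 0.0286, adjusted p = 0.114 over 6 genes, exact permutation test). The value 0.0286 is the smallest that 3 against 4 libraries can give. Scarb1 had 2386, 2379, 2434 and 2413 bases in young libraries and 2446, 2444 and 2438 bases in old libraries (adjusted p = 0.114, exact permutation test). Neither difference passed after adjustment.

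The Scarb2 annotation holds 2 transcripts, so its mean length fixes their mix. The longer (4698 bases) encodes the protein, and the shorter (2033 bases) is annotated as a retained intron. With these GENCODE vM21 lengths, the retained-intron transcript made up 5.36, 5.76, 4.98 and 5.43% of Scarb2 transcripts in young libraries and 2.85, 1.78 and 2.37% in old libraries. The young share was 5.38 ± 0.32% (SD, n = 4) and the old share 2.33 ± 0.54% (SD, n = 3). These shares rest on the same lengths as the test above and are no second test. They assume that the release the authors used has the same lengths, which held for 77.6% of 5515 tested genes with 1 transcript. The share of ribosomal RNA genes moved with age in the same direction as the retained intron, and its part in the result was not tested.

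**Figure D2:**
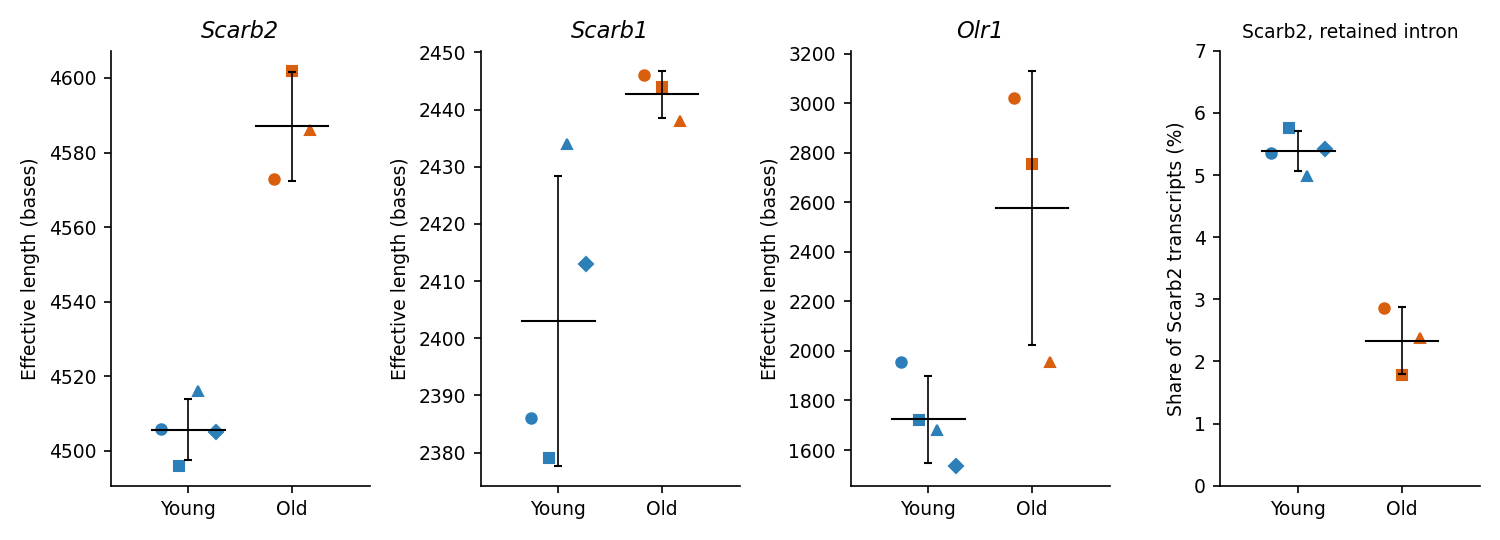
Effective length in bases of Scarb2, Scarb1 and Olr1 in each library (first 3 panels, axes not from 0) and the share of Scarb2 transcripts that RSEM assigned to the retained-intron transcript (last panel, percent). Points are mice with the same symbols as in the plot of levels, bars the mean and error bars the SD; the retained-intron share lies between 4.98 and 5.76% in young mice and between 1.78 and 2.85% in old mice.

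Class A receptors gave no call. Msr1 encodes the macrophage scavenger receptor that binds acetylated and oxidised low-density lipoprotein (chromosome 8, 39581685 to 39642673, minus strand). Msr1 had 173.7, 114, 285.9 and 174.5 CPM in young libraries and 242.5, 366.5 and 217.5 CPM in old libraries. The highest value was in 3posI and the highest young value in 23C, so the ages overlapped. The fitted log2 fold change of Msr1 was 0.56 (SE 0.30, 95% interval -0.14 to 1.25, adjusted p = 0.361, edgeR). Single libraries moved it, to 0.30 without 3posI and to 0.84 without 23C.

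Marco encodes a class A receptor for bacteria and particles that is known from macrophages of the spleen and lung (chromosome 1, 120474538 to 120505024, minus strand). Marco had 23, 15, 21 and 18 expected counts in young libraries, or 0.498, 0.336, 0.412 and 0.387 CPM. In old libraries it had 36, 45 and 45 expected counts, or 1.07, 1.15 and 0.972 CPM. Every old library was above every young library, including 2posI and 4posI, whose monocyte markers (451 and 215 CPM) lay within the range of the young libraries. Single monocyte genes did move with it: Ly6c2 had 0.946 to 2.86 CPM in young and 9.59 to 162 CPM in old libraries, and Plac8 was also higher in every old library. Their part in the Marco difference was not tested. The fitted log2 fold change of Marco, 1.38 (SE 0.38, 95% interval 0.52 to 2.23), did not pass the threshold (adjusted p = 0.119, edgeR), and it was 1.32 without 3posI. DESeq2 called Marco (1.39, adjusted p = 0.0142). The difference was smaller per transcript length. Marco had 0.56, 0.38, 0.31 and 0.52 TPM in young and 0.70, 0.78 and 0.74 TPM in old libraries, and with the effective length as an offset the log2 fold change came to 0.84 (adjusted p = 0.321, edgeR). RSEM placed the Marco reads of the old libraries and of 23C wholly on the long transcript (effective length 1876 bases) and gave 973 to 1266 bases in the other young libraries. At 15 to 45 counts the mix of transcripts is itself poorly measured.

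Colec12 encodes a collectin of the membrane that binds oxidised lipoprotein and carbohydrate, and is known from endothelial cells (chromosome 18, 9707595 to 9882644, plus strand). Colec12 had 15.2, 14.9, 30.0 and 14.6 CPM in young libraries and 12.7, 11.0 and 4.36 CPM in old libraries. The ages did not overlap, but 14.6 CPM in 29C and 12.7 CPM in 2posI lay close, and 23C was about 2-fold above the other young libraries. The fitted log2 fold change of Colec12 was -0.998 (SE 0.41, 95% interval -1.93 to -0.06), and the gene was not called (adjusted p = 0.238, edgeR). The value was -0.67 without 23C and -0.66 without 4posI. The summed endothelial markers were also highest in 23C (135 CPM) and lowest in 4posI (57.9 CPM), but single markers differed. Cldn5, a tight junction protein, was highest and lowest in these same libraries (58.5 and 10.1 CPM). Pecam1 and Cdh5 peaked in 23C but were lowest in 2posI and 18C. Flt1, Ly6c1, Tek and Slco1a4 peaked in 29C, and Kdr in 3posI. The part of endothelial RNA in the Colec12 values was not tested. The files give Colec12 1 transcript of 3322 bases, which the vM21 annotation gives with 3447 bases, so its TPM depends on the release.

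Cd68, the lysosomal and endosomal glycoprotein used as a marker of phagocytic microglia and macrophages, lies on chromosome 11 (69664213 to 69666153, minus strand). Cd68 had 1854, 1757, 2727 and 2089 CPM in young libraries and 2761, 2597 and 2354 CPM in old libraries. Library 23C lay among the old libraries, and the other young libraries lay below them. The log2 fold change was 0.29 (SE 0.19, 95% interval -0.15 to 0.72, adjusted p = 0.446, edgeR), and 0.44 without 23C. In TPM the old libraries were nearly equal (2910, 2899 and 2896), whereas the young libraries had 2246, 2182, 3349 and 2334.

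Olr1 encodes LOX-1, a lectin-like receptor for oxidised low-density lipoprotein (chromosome 6, 129485244 to 129507165, minus strand). Olr1 had 6.13, 4.94, 10.6 and 7.12 CPM in young libraries and 3.87, 14.5 and 7.23 CPM in old libraries. The lowest and the highest value were both in old libraries (2posI and 3posI). The log2 fold change was 0.25 (SE 0.43, 95% interval -0.74 to 1.23, adjusted p = 0.795, edgeR), and without 3posI it was -0.37. It was also below 0 on TPM (-0.53) and with the effective-length offset (-0.30). The effective length of Olr1 was 1957, 1723, 1681 and 1536 bases in young libraries and 3022, 2754 and 1956 bases in old libraries (adjusted p = 0.114, exact permutation test). No direction can be given for Olr1.

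**Figure D3:**
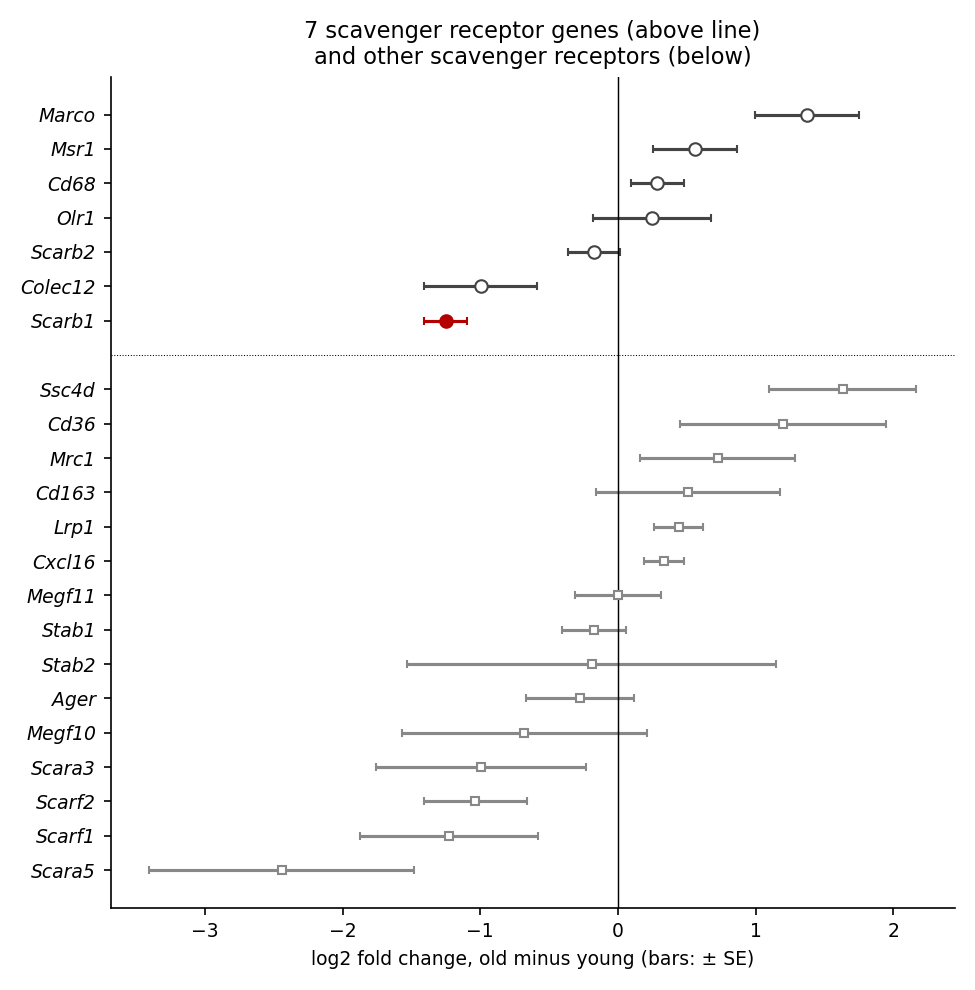
Log2 fold change of old over young with its SE (horizontal axis) for the 7 scavenger receptor genes (circles, above the dotted line) and 15 other scavenger receptors (squares, below it), from edgeR on 4 young and 3 old libraries. The filled red circle is Scarb1, the gene that was called (-1.25); Marco has the highest value of the 7 (1.38), and open symbols were not called.

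Across libraries the receptors did not share 1 profile. Young library 23C had the highest young level of 5 of the 7 genes (Msr1, Scarb2, Colec12, Cd68 and Olr1), while Scarb1 was highest in 29C and Marco in 14C. Library 23C also had the lowest young level of P2ry12, a homeostatic microglia marker (440.5 CPM, against 1147 to 1767 CPM in the other young libraries). Likeness was measured as the root mean square difference of log2 CPM over the 7 libraries, each gene centred on its own mean, so that 0 is an identical profile. Among the 7 genes, Scarb2 and Cd68 were the closest pair (0.24), followed by Msr1 and Cd68 (0.31), and Scarb1 and Marco were the farthest (1.30).

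The same measure was taken against 9591 genes with a mean of at least 5 CPM. The 2 most like Cd68 were Ctla2b (0.048) and Ptgr1 (0.051). Those most like Scarb2 were Pgm3 (0.077) and Tuft1 (0.080), and those most like Msr1 were Tmem106a (0.059) and Anxa5 (0.12). Scarb1 was most like Jak3 (0.13), a cytokine receptor kinase, and Cxcl12 (0.16), a chemokine, both called lower in old mice (log2 fold changes -1.12 and -1.18). Marco was most like Ncoa1 (0.17) and Ube2q1 (0.18), both called higher (1.18 and 1.08). Colec12 was most like Esam (0.20), an adhesion molecule of endothelial junctions, and Kank2 (0.27), neither of them called. Olr1 was most like Id1 (0.19) and Ripk3 (0.21). All these genes were picked for likeness over the same libraries of both ages. An age difference shared with a receptor therefore comes with the choice and is no independent support for that of the receptor.

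Sequences before the start site are shown for Cd68, Scarb2 and Olr1, since these genes peaked together in 23C among young libraries and have a RefSeq entry. RefSeq promoter sequences were used for 4 of the 7 genes, these 3 and Marco, and that of Colec12 was not used here. Each line gives the 250 bases before the RefSeq start (GRCm38.p6, minus strand, 5′ to 3′), with matches to 4 motifs in capitals on either strand: TGAGTCA (AP-1), GAGGAA (the core of ETS sites, among them those of PU.1), TCATGTG (the M-box of MITF and TFEB) and GGGCGG (the GC box).
Cd68 (chr11:69666171-69666420): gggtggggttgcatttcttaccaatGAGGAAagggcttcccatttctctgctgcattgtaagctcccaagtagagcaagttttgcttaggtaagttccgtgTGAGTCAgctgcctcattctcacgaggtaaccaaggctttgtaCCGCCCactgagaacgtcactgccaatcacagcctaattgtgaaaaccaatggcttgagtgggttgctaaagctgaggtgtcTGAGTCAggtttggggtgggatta
Scarb2 (chr5:92505658-92505907): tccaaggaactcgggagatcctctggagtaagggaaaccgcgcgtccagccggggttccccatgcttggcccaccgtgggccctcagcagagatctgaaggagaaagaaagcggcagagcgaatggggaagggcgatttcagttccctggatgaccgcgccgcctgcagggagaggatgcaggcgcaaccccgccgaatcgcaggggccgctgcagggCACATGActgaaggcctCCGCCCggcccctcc
Olr1 (chr6:129507166-129507415): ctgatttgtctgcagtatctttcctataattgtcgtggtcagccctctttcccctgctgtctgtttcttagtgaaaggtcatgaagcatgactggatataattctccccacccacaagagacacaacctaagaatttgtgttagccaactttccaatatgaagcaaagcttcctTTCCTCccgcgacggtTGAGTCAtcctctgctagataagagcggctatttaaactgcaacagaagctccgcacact
TGAGTCA occurs 149 and 24 bases before the Cd68 start and 60 bases before the Olr1 start, and in 4.46% of all 32851 promoter windows of this length. GAGGAA or its complement occurs in the Cd68 and Olr1 windows and in 23.3% of all windows. The M-box letters occur in the Scarb2 window, 32 bases before its start on the other strand, and in 3.25% of all windows. GC-box letters occur in the Cd68 and Scarb2 windows and in 32.7% of all windows. The Scarb2 window lies inside the gene as GENCODE vM21 places it (92441314 to 92506833, minus strand). Its distances therefore hold for the RefSeq start and not for the vM21 start. No matches overlapped in these 3 windows. The matches describe the letters and are no evidence of binding.

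Other scavenger receptors outside the 7 genes gave no call in edgeR, with 5 of 15 at an unadjusted p under 0.05 (18.9% of all genes tested), and DESeq2 called 1 (Ssc4d). Of 16 listed genes, 15 were tested (all but Ssc5d), 7 with a higher and 8 with a lower fitted level in old mice, and their median log2 fold change was -0.17. The 4 genes with the smallest p were Ssc4d (1.63 ± 0.54, log2 fold change ± SE), Scarf2 (-1.04 ± 0.37), Scara5 (-2.44 ± 0.96) and Lrp1 (0.44 ± 0.18), with adjusted p of 0.163, 0.191, 0.220 and 0.228 (edgeR). Lrp1 encodes a large endocytic receptor for apolipoprotein E, and Scarf2 a receptor with epidermal growth factor repeats. The ages did not overlap in 3 of the 15 genes, Ssc4d and Cxcl16 (higher) and Scara5 (lower), a share near the 17.7% of all genes tested. Cxcl16, a chemokine that also serves as a receptor for oxidised lipoprotein, had 338, 305, 393.5 and 371 CPM in young and 422, 498 and 410.2 CPM in old libraries, and its adjusted p was 0.255 (edgeR). Cd36, the class B fatty acid receptor named here after its values were seen, had 35.9, 12.8, 52.6 and 14.3 CPM in young libraries and 43.8, 138 and 18.2 CPM in old libraries, with the peak in 3posI. Its log2 fold change was 1.20 with all libraries and 0.10 without 3posI, not called in either.

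Genes that handle the lipoprotein and sterol taken up by such receptors gave no call in edgeR either, with 4 of 15 at an unadjusted p under 0.05 (18.9% of all genes tested), and DESeq2 called 2 (Npc1 and Npc2). Of 16 listed, 15 were tested (all but Pdzk1), 11 with a higher and 4 with a lower fitted level in old mice, and their median log2 fold change was 0.37. Without 3posI, 5 were higher and 10 lower, with a median of -0.09, so the direction of this list rested on that library. Npc1, which moves cholesterol out of lysosomes, had 95.7, 92.1, 85.0 and 80.7 CPM in young and 129, 196 and 127 CPM in old libraries. On the log2 scale Npc1 was 0.77 higher (SE 0.17), which was not called (adjusted p = 0.0702, edgeR), and no old library overlapped with a young one. The next smallest p were those of Npc2, its lysosomal partner (0.49 ± 0.17), Abca1, the cholesterol efflux pump (0.48 ± 0.17), and Nr1h3, which encodes the sterol sensor LXR alpha (2.12 ± 0.76), with adjusted p of 0.176, 0.183 and 0.197 (edgeR). Nr1h3 had 35.7 CPM in 3posI and 1.45 to 5.20 CPM in the other 6 libraries. Without 3posI the log2 fold change of Nr1h3 was 0.49 (adjusted p = 0.576, edgeR), and that of Npc1 was 0.54 (adjusted p = 0.0768, edgeR). The ages did not overlap in 3 of the 15 genes (Npc1, Abca1 and Vldlr, each higher), a share near the 17.7% of all genes tested.

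Genes of the lysosomal membrane, where LIMP-2 and CD68 reside, were close to balanced. Of 12 listed, 8 were tested, 4 with a higher and 4 with a lower fitted level, with a median log2 fold change of 0.01. edgeR and DESeq2 called 0 of them, and 1 had an unadjusted p under 0.05 in edgeR. The smallest p were those of Tmem192 (0.35 ± 0.15), Slc38a9 (-0.23 ± 0.20), Mcoln1 (-0.14 ± 0.13) and Laptm4a (0.10 ± 0.12), with adjusted p of 0.248 to 0.679 (edgeR). The ages overlapped in every gene tested of this list.

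Markers of other cell types in the sorted cells are given for the genes above. Summed border-associated macrophage markers ranged from 190 to 522 CPM in young and from 208 to 1618 CPM in old libraries, and neutrophil markers from 17.0 to 130.5 and from 48.2 to 165 CPM. Summed dendritic cell markers (7 genes) were 13.9, 61.8 and 14.3 CPM in old and 6.22 to 9.84 CPM in young libraries, without overlap, as for Marco. The list itself was split, with 4 genes higher and 3 lower (Xcr1, Zbtb46 and Itgae) in fitted level and 0 called. Ccr7 and Cd209a were higher in every old than in every young library, and the other genes of the list overlapped. Ccr7 had 3.31, 44.8 and 3.07 CPM in 2posI, 3posI and 4posI, against 0.412 to 1.38 CPM in young libraries. Cd209a had 6.85, 5.085 and 4.49 CPM in these old libraries, against 0.0860 to 1.48 CPM in young libraries. Astrocyte markers summed to 106 to 146 CPM in young and 66.2 to 184 CPM in old libraries, oligodendrocyte markers to 47.4 to 52.0 and 44.6 to 69.5 CPM, B and T lymphocyte markers to 14.96 to 22.6 and 11.5 to 23.6 CPM, and neuron markers to 2.56 to 4.20 and 1.30 to 3.78 CPM. Most of the lymphocyte sum was Cd79b (8.61 to 22.2 CPM), so it hides the other genes of that list. Of the 7 lymphocyte genes tested, 6 had a higher and 1 a lower fitted level in old mice, with 0 called. Trac (0.119 to 0.792 CPM in old, 0 to 0.0785 in young) and Cd8a (0.2555 to 0.518 in old, 0 to 0.0196 in young) did not overlap, at low levels. No marker was at 0 in all libraries. The part of these cells in the receptor levels was not tested.

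**Figure D4:**
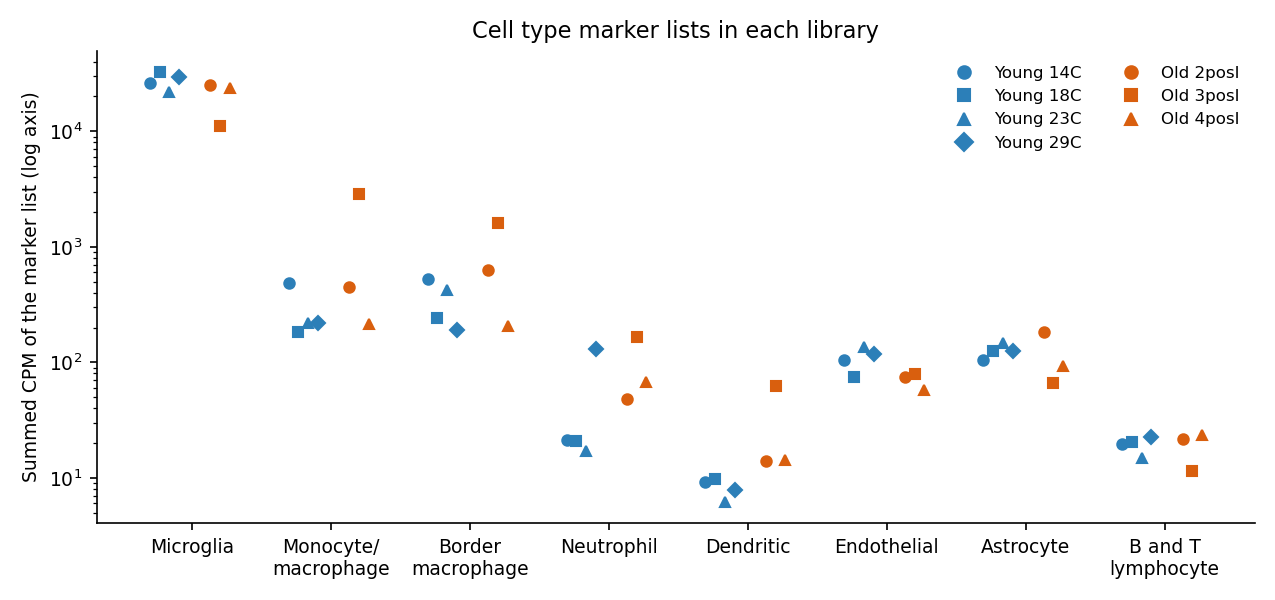
Summed CPM of 8 lists of cell type markers in each library on a log axis, with the same symbols and colours as in the plot of levels; each point is 1 mouse. Old library 3posI (orange square) is lowest for microglia markers and highest for monocyte and border macrophage markers, and young library 23C (blue triangle) is the lowest young library for microglia markers.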

How the data were processed

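RNA of FACS-sorted Bodipy+ microglia was sequenced after low-input amplification (Smart-seq2, non-stranded, per the labels). Per the methods and labels, the authors trimmed reads with skewer, aligned them to GRCm38 with STAR and quantified GENCODE m15 genes with RSEM. Versions of STAR and RSEM were not given in the sources used here. Deposited values are expected counts, TPM, FPKM and effective lengths per gene. TPM and FPKM are scaled within each library by the authors, and no column was normalized between libraries.

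Expected counts were rounded. Genes needed an expected count above 10 in 1 library, and genes on X, Y and M were left out. TMM factors (0.952 to 1.05) and the robust quasi-likelihood test came from edgeR 4.0.16 in R 4.3.3. Age was the sole term, as no batch or pairing is labelled. Gene positions and transcripts came from GENCODE vM21, which held 50462 of the 50686 identifiers, and promoters from RefSeq. The steps were tested on simulated data. The p-values of edgeR, DESeq2 and limma set each age difference against the spread between these animals. Those of the exact tests rest on rearranging the values of the same libraries. No molecular identifiers are named, so counts are not independent molecules.

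The 7 genes and all lists were chosen with earlier results of these data known. Genes named from the 3 pathway lists were those called, or else the 4 with the smallest p, and 2 genes per receptor were named by likeness. Alternatives were DESeq2 1.42.0, voom in limma 3.58.1, with quality weights or none, other factors and filters, X, Y and M kept, an effective-length offset, limma-trend on log2(TPM + 0.1) and log2(TPM + 1), FPKM for the order of levels, and each library left out. edgeR without robust estimates was added after the data were seen.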

Additional observations from a re-analysis of the deposited data

Results flagged for a closer look

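In the 4 young libraries, a gap between 1 library and the rest was compared with Dixon's 95% value for 42 results, and 8 exceeded it, whereas chance gives about 1 in 20. Library 23C lay above the other 3 young libraries in Scarb2 (gap of 0.869 of the range in CPM and 0.954 in TPM), Colec12 (0.964 in CPM and 0.900 in TPM) and Cd68 (0.870 in TPM, 2182 to 2334 in the others and 3349 in 23C). Scara5 was also highest in 23C (gap 0.914, 1.65 CPM against 0.409 to 0.515 CPM). Summed monocyte and infiltrating macrophage markers were highest in 14C (gap 0.876, 485 CPM against 181 to 219 CPM), and summed neutrophil markers in 29C (gap 0.961, 130.5 CPM against 17.0 to 21.4 CPM). Of the 8 results, 6 concern 23C, and they are not independent of each other, since CPM and TPM share the same reads.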

How the results depend on the processing

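No paired analysis was possible because the labels give no replicate numbers and name a different animal for each library. Scarb1 was called in 13 of 13 alternatives that kept all libraries (log2 fold change -1.37 to -1.24, adjusted p 3.29e-09 to 0.0236), and in 3 of 7 fits that left out a library (-1.41 to -1.17, adjusted p 0.0181 to 0.0933). The count of called receptors was 1, with 0 to 1 when a library was left out and 2 in DESeq2, which added Marco (1.39). Marco kept its direction, and its log2 fold change was 0.84 with the effective-length offset and 0.66 and 0.27 on log2(TPM + 0.1) and log2(TPM + 1). Scarb2 turned to 0.0037 without 23C (range -0.24 to 0.0037 when a library was left out). Olr1 turned to -0.30 with the effective-length offset, -0.53 on log2(TPM + 0.1), -0.41 on log2(TPM + 1) and -0.37 without 3posI (range -0.37 to 0.59 when a library was left out). Msr1, Colec12 and Cd68 kept their direction and were called in none of the 20 alternatives each. DESeq2 called 1 other scavenger receptor (Ssc4d) and 2 lipoprotein genes (Npc1 and Npc2), and without the filter on low counts 1 lipoprotein gene (Npc1) was called. Over all genes, 170 were called (67.6% higher in old mice), against 318 with voom and quality weights, 1399 in DESeq2 (53.2% higher), 113 without normalization factors, 336 without the filter (53% higher), 71 and 64 on log2(TPM + 0.1) and log2(TPM + 1) (47.9 and 50% higher), 228 with the effective-length offset (56.6% higher), and 1 to 179 when a library was left out. The cause of these shifts was not tested. In the order of levels, 5 of 6 pairs differed and 4 to 5 when a library was left out. The ages did not overlap in the effective length of 2 receptors, and of 2 to 3 when a library was left out. Depth limits Marco, with 15 to 45 counts per library.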
